A study of Mus musculus with 3 samples.

Results

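The 6 genes Gzma, Gzmb, Gzmk, Prf1, Nkg7 and Fasl, which belong to the killing machinery of lymphocytes, were followed through single-cell RNA sequencing of mouse brain. They were taken by symbol from the 31053 genes of the deposited count matrix, and all 6 had a single row in it. The libraries were made from brain tissue of mice of the strain labelled C56BL6 (C57BL/6 in the study's methods), 10 weeks old, that were healthy controls, had an ischemic stroke or had a hemorrhagic stroke, and each of the 3 conditions gave 1 library pooled from 8 mice. The sources used here do not state when after stroke the tissue was taken. The stroke models were occlusion of the middle cerebral artery and injection of collagenase, which breaks vessel walls. The 3 libraries were deposited as 1 matrix in which a barcode carries a suffix of 1, 2 or 3, and no source used here pairs a suffix with a condition, and suffixes were not assigned from the numbers of cells they hold, so that the comparison of healthy, ischemic and hemorrhagic brain was not made. The matrix was treated as 1 pooled sample, and no test between samples was possible. For the 6 genes, levels in each suffix are given beside most pooled levels. Intervals are exact 95% intervals and cover counting error only, not the spread between mice.

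Cytotoxic lymphocytes kill by releasing granules into the contact with a target cell. Perforin, the product of Prf1, opens the membrane of the target, and granzymes, a family of serine proteases, enter through it and cleave proteins inside. Granzyme B cleaves after aspartate and triggers caspases, granzyme A cleaves after basic residues, and granzyme K shares this preference with granzyme A. Nkg7 is a membrane protein of the granules that takes part in their release. Fas ligand, the product of Fasl, is a separate route to death, acting from the cell surface on the receptor Fas. Natural killer (NK) cells carry granules ready for use, CD8 T cells arm themselves after they meet antigen, and CD4 T cells mostly help other cells.

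The positions are on the mouse build GRCm38 in the GENCODE M21 annotation. Gzma (ENSMUSG00000023132) lies on the minus strand of chromosome 13 from 113093825 to 113100981, and Gzmk (ENSMUSG00000042385) lies on the same strand from 113171608 to 113225908, with 70626 bases and no other coding gene between them. The longest Gzmk model runs over Esm1, a gene of endothelial cells. Gzmb (ENSMUSG00000015437) lies on chromosome 14 from 56258838 to 56262260 on the minus strand beside Gzmc. Prf1 (ENSMUSG00000037202) lies on chromosome 10 from 61297833 to 61304680 and Nkg7 (ENSMUSG00000004612) on chromosome 7 from 43437073 to 43438249, both on the plus strand. Fasl (ENSMUSG00000000817) lies on chromosome 1 from 161780689 to 161788495 on the minus strand.

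The 250 bases before the RefSeq start of Gzma, Gzmb and Gzmk are shown because these 3 granzymes had 3 different patterns over the lymphocyte classes. They are from RefSeq (GRCm38.p6), read 5′ to 3′ on the gene's strand, at chr13:113100982-113101231 for Gzma, chr14:56262335-56262584 for Gzmb and chr13:113180966-113181215 for Gzmk, all on the minus strand. None of the 3 windows holds an exon base of GENCODE M21. The first 12 bases from the RefSeq start were found near the beginning of 1 of 2 GENCODE transcripts of Gzma. They were found in 0 of 1 for Gzmb and 0 of 3 for Gzmk, and the Gzmk window lies inside the GENCODE span of Gzmk. Distances below are thus from RefSeq starts that GENCODE M21 does not share for Gzmb and Gzmk. Capitals mark matches, on either strand, to the T-box core AGGTGT, the Runx core TGTGGT, the AP-1 motif TGANTCA or the CRE core TGACGT.
Gzma: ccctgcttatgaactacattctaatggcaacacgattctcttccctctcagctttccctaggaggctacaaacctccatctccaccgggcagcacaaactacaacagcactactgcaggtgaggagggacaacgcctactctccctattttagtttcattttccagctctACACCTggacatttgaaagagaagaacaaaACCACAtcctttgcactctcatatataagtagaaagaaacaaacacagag
Gzmb: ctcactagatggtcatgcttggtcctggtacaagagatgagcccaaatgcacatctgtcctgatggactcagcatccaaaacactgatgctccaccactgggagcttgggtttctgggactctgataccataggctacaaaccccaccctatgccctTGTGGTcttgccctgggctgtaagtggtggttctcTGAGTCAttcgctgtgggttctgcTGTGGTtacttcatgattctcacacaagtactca
Gzmk: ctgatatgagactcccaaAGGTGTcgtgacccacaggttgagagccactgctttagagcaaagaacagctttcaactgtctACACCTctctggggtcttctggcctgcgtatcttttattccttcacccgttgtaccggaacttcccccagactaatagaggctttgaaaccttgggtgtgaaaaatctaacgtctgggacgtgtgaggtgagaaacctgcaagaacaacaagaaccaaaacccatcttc

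The T-box core is the motif of Eomes and T-bet, the factors that direct cytotoxic programs. It was found in the Gzma window from 80 to 75 bases before the start and in the Gzmk window from 232 to 227 and from 169 to 164 bases before it. The Gzmb window held the Runx core at 93 to 88 and at 34 to 29 bases before the start and the AP-1 motif between them, at 58 to 52 bases. The Gzma window also held the Runx core, at 50 to 45 bases. Over all 6 genes, the T-box core was in 4 windows (Gzma, Gzmk, Prf1 and Nkg7), against 11.8% of the 32851 promoter windows of the same length. The Runx core was also in 4 (Gzma, Gzmb, Prf1 and Nkg7), against 14.05%. The AP-1 motif was in the Gzmb window, against 6.75% of all windows, and the CRE core in the Prf1 window, against 6.47%. No matched letters overlapped between motifs, and a match describes letters, not a bound site.

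A unique molecular identifier (UMI) counts 1 captured transcript. For the NK and T classes, barcodes with at least 1000 UMIs, at most 30% of them mitochondrial, and under 0.5% of them from the microglial C1q genes were kept, which left 19182 of 35968. Other cell classes, such as oligodendrocytes and microglia, had no C1q limit. They were taken from the 31982 barcodes past the UMI and mitochondrial limits. NK barcodes held 2 or more of Ncr1, Klrb1c and Klre1 and no Cd3e, and numbered 377 (263 of suffix 1, 108 of suffix 2 and 6 of suffix 3). T barcodes held 2 or more of Cd3d, Cd3e and Cd3g, parts of the T cell receptor complex. Of these, 1500 were CD8 T barcodes with Cd8a or Cd8b1 and no Cd4 (451, 1039 and 10 by suffix), 243 were CD4 T barcodes with Cd4 only (122, 117 and 4), and 828 had neither coreceptor. The median depth was 6218 UMIs in NK, 5122 in CD8 T and 5006 in CD4 T barcodes. None of the barcodes of these 3 classes was shared between suffixes, while 110 of all barcodes were.

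The NK and T cell markers outside the gates were found in most barcodes of the class they mark. Tyrobp, the adaptor of NK receptors and also a microglial gene, stood at 2188 UMIs per 1000000 UMIs of the class (CPM) in NK barcodes, against 126 CPM in CD8 T, 130.4 CPM in CD4 T and 163 CPM in oligodendrocyte barcodes. Klrd1, a receptor chain of NK cells, had a UMI in 85.9% of NK barcodes, 46.3% of CD8 T barcodes and 4.53% of CD4 T barcodes, and Trac, the constant part of the alpha chain of the T cell receptor, in 84.0% of CD8 T, 83.5% of CD4 T and 10.6% of NK barcodes. The T cell markers Trbc2 and Lck were less exclusive, with a UMI in 41.4% and 54.9% of NK barcodes. NK barcodes included 56 with Cd3d or Cd3g, and Trdc, the constant part of the delta chain, had a UMI in 22.3% of NK barcodes. The gate does not part NK cells from other innate lymphoid cells that carry Ncr1 and Klrb1c. Foxp3, which defines regulatory T cells, had a UMI in 4 of the 243 CD4 T barcodes. Ctla4, also listed as a CD4 T marker, had a UMI in 38.3% of CD4 T and 30.6% of CD8 T barcodes. Called doublets, barcodes that may hold more than 1 cell, were 4.24% of NK, 4.93% of CD8 T and 4.53% of CD4 T barcodes.

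Background was read from oligodendrocyte barcodes, which should lack all 6 genes and had a median of 6269 UMIs. Called doublets were 1.73% of them, and free RNA was not told apart from barcodes that hold more than 1 cell. Of the 9202 oligodendrocyte barcodes, 0.478% had a UMI of Gzma, 0.337% of Gzmb, 0.0326% of Gzmk, 0.109% of Prf1, 1.03% of Nkg7 and 0.0978% of Fasl. Those of suffix 3 held none of the 6 genes in 3609 barcodes. Every share given below for NK and CD8 T barcodes lay above these values. In CD4 T barcodes the share for Prf1, 0.823%, had an interval from 0.0998% to 2.94% that reached down to the oligodendrocyte share. Transcripts of other cells were present in the lymphocyte barcodes as well. The 6 oligodendrocyte markers, all of them found in each class, summed to 391 CPM in NK, 478 in CD8 T and 384 in CD4 T barcodes, and the 6 microglia markers to 67.8, 73.3 and 76.5 CPM, and their part in the results was not tested.

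**Figure D1:**
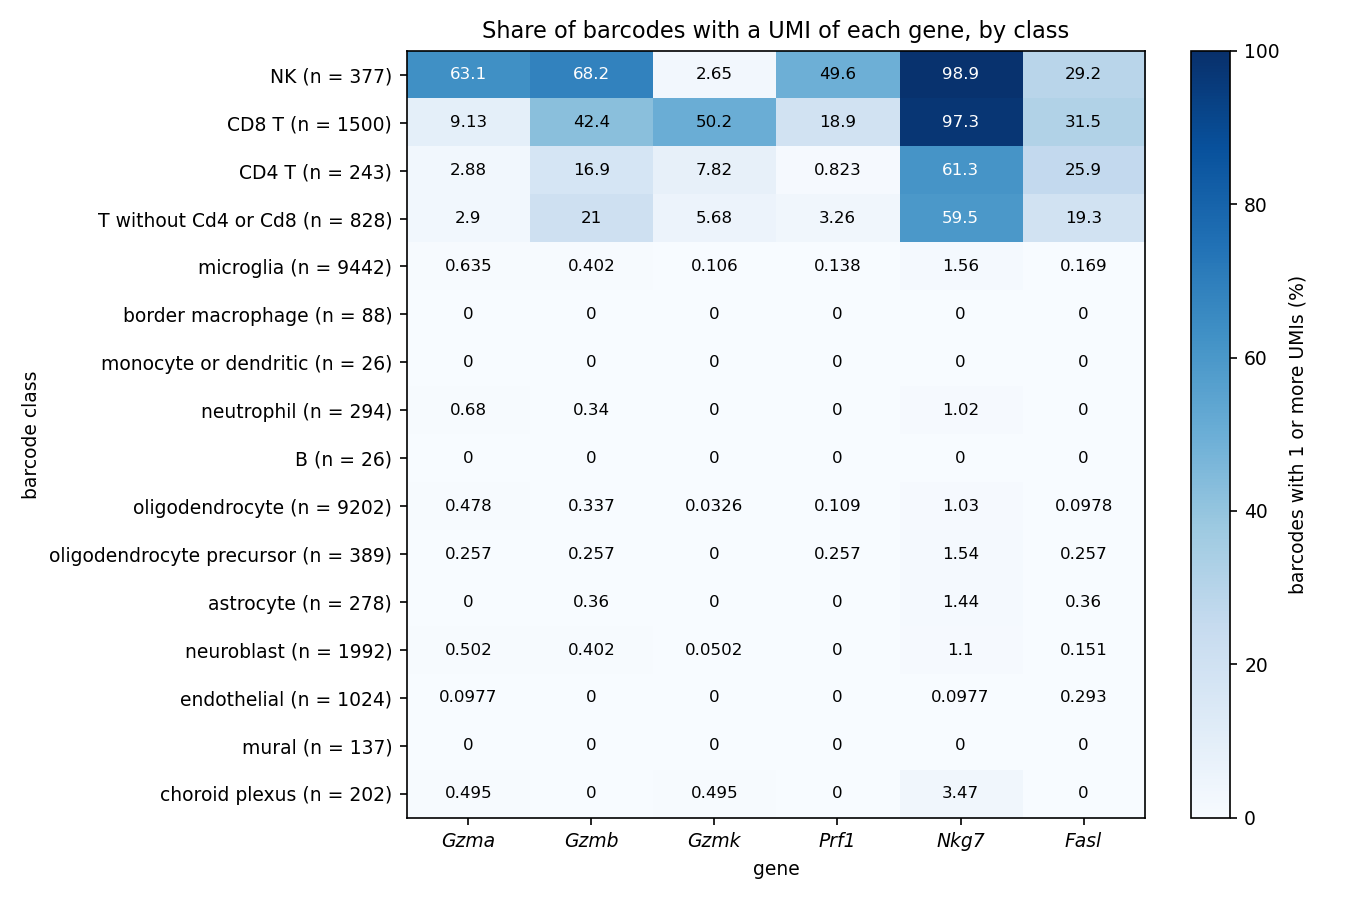
Share of barcodes, in percent, with 1 or more UMIs of each gene (columns) in each barcode class (rows, with the number of barcodes), all suffixes pooled, for classes of 20 or more barcodes. The 4 lymphocyte rows at the top hold the high shares, with Gzma at 63.1% in NK and 9.13% in CD8 T barcodes and Gzmk at 2.65% and 50.2%, while the other rows reach 3.47% at most, for Nkg7 in choroid plexus barcodes.

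Gzma marked NK barcodes. A UMI was found in 63.1% of NK barcodes (95% interval 58.0% to 68.0%), 9.13% of CD8 T barcodes (7.72% to 10.7%) and 2.88% of CD4 T barcodes (1.17% to 5.84%). Summed over barcodes, its level was 3064 CPM (2996 to 3133) in NK, 198 CPM in CD8 T and 6.27 CPM in CD4 T barcodes. By suffix, the NK level was 3068, 2886 and 7958 CPM in suffixes 1, 2 and 3, and each exceeded every CD8 T level, which were 461, 48.5 and 36.2 CPM. The CD4 T levels were 5.19 and 8.14 CPM in suffixes 1 and 2, on 5 UMIs each, and 0 UMIs were found in suffix 3. In the order of levels over all classes, NK, CD8 T, T barcodes without Cd4 or Cd8 (18.5 CPM) and CD4 T followed each other, and the CD4 T interval overlapped that of oligodendrocytes (3.22 CPM), whose level in suffix 1 was 10.2 CPM. By counting error alone, the pooled Gzma level of CD4 T barcodes was thus not told apart from that of oligodendrocyte barcodes. Such error does not cover UMIs that sit in few barcodes. The share of CD4 T barcodes with a UMI, 2.88% (1.17% to 5.84%), lay above the oligodendrocyte share. The part of free RNA in it was not tested. The NK barcodes with Gzma had a median of 21 UMIs of it, with quartiles of 7 and 44.5, and the richest held 379.

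The ratio of NK to CD8 T was 15.4 (14.7 to 16.3) over all suffixes, and it was 6.66 (6.30 to 7.05) in suffix 1, 59.5 (52.4 to 67.7) in suffix 2 and 219.7 (59.8 to 1829) in suffix 3, the last with 2 UMIs in 10 CD8 T barcodes. Without suffix 1 its log2 value was 5.71 and without suffix 2 it was 2.75, in place of 3.88. Much of the CD8 T level sat in few barcodes. The 25 barcodes with 10 or more Gzma UMIs, 18 of suffix 1 and 7 of suffix 2, held 84.8% of all Gzma UMIs of the 1500 CD8 T barcodes, and the richest held 356. They held 92.9% of the CD8 T Gzma UMIs of suffix 1 and 40.8% of those of suffix 2. These barcodes were looked at after the values by suffix had been seen. Their median depth was 12733 UMIs, 24 of them had Cd3e, 5 had an NK gate gene, and 1 was a called doublet. Gzmb was found in 23, Gzmk in 20 and Prf1 in 13 of them. Against CD4 T barcodes, the Gzma level was 489-fold higher in NK (266 to 1019.6) and 31.6-fold higher in CD8 T (17.2 to 66.1). The ratio of CD8 T to CD4 T was 88.7 in suffix 1 and 5.96 in suffix 2, and without suffix 1 its log2 value was 1.71 in place of 3.68. These ratios rest on 10 UMIs in CD4 T barcodes.

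Gzmb was spread more widely. It had a UMI in 68.2% of NK (63.2% to 72.8%), 42.4% of CD8 T (39.9% to 44.9%) and 16.9% of CD4 T barcodes (12.4% to 22.2%), and in 21.01% of T barcodes without Cd4 or Cd8. Its level was 782 CPM in NK (748 to 817), 346 in CD8 T (334 to 358) and 176 in CD4 T barcodes (156 to 197). The NK levels were 715, 998 and 635 CPM by suffix and all lay above the CD8 T levels of 375, 332 and 109 CPM. The CD4 T level was 242 CPM in suffix 1 and 76.5 in suffix 2, with 0 UMIs in the 4 barcodes of suffix 3. By pooled level the order was NK, CD8 T, CD4 T and T without coreceptor (138 CPM). No neighbours among these 4 had overlapping intervals, which cover counting error only. The place of CD4 T above T without coreceptor was not firm. The CD4 T level of suffix 2, 76.5 CPM, lay under 138 CPM, and the share with a UMI was lower in CD4 T, at 16.9% against 21.01%.

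The Gzmb ratio of NK to CD8 T was 2.26 (2.13 to 2.39), that of NK to CD4 T 4.45 (3.93 to 5.06) and that of CD8 T to CD4 T 1.97 (1.75 to 2.24). All 3 were smaller in suffix 1, at 1.91, 2.96 and 1.55, than in suffix 2, at 3.01, 13.05 and 4.34, and the difference between suffixes was not tested. In CD4 T barcodes 10 barcodes held 73.9% of the Gzmb UMIs, against 19.7% in the 10 richest CD8 T barcodes.

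Gzmk was higher in CD8 T than in NK barcodes, the reverse of Gzma. Its UMIs were found in 50.2% of CD8 T barcodes (47.6% to 52.8%), 7.82% of CD4 T barcodes (4.77% to 11.9%) and 2.65% of NK barcodes (1.28% to 4.82%). The CD8 T level was 161 CPM (153 to 169), with 128, 181 and 109 CPM in suffixes 1, 2 and 3. The NK level was 4.31 CPM on 11 UMIs in all, with 4.67 and 3.31 CPM in suffixes 1 and 2 and 0 UMIs in suffix 3. In CD4 T barcodes it was 18.2 CPM (12.2 to 26.1), with 16.6 and 21.2 CPM in suffixes 1 and 2. The CD8 T level exceeded the NK level 37.4-fold (20.8 to 75.02) and the CD4 T level 8.86-fold (6.14 to 13.3), and the CD4 T level exceeded the NK level 4.22-fold (2.05 to 9.36), which is under 2-fold after 10 CPM are added to both. The intervals of CD4 T and of T barcodes without Cd4 or Cd8 (14.2 CPM) overlapped, and all others among the lymphocytes were apart.

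Prf1 followed Gzma in order. It had a UMI in 49.6% of NK (44.4% to 54.8%), 18.9% of CD8 T (16.9% to 20.9%) and 0.823% of CD4 T barcodes. Its level was 165 CPM in NK (150 to 181), 39.8 in CD8 T (35.9 to 44.1) and 1.88 in CD4 T barcodes, the last on 3 UMIs. By suffix the NK levels were 153, 183 and 732 CPM, the last on 15 UMIs in 6 barcodes, and the CD8 T levels were 33.1, 44.1 and 0 CPM. The ratio of NK to CD8 T was 4.14 (3.59 to 4.77), and it was 4.62 in suffix 1 and 4.16 in suffix 2. T barcodes without Cd4 or Cd8 (7.34 CPM) and CD4 T barcodes had overlapping intervals. A barcode held at most 11 UMIs of Prf1 in NK and 15 in CD8 T.

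Nkg7 was shared by NK and CD8 T barcodes. It had a UMI in 98.9% of NK, 97.3% of CD8 T and 61.3% of CD4 T barcodes. Its level was 1740 CPM in NK (1689 to 1792), 1767 in CD8 T (1740 to 1794) and 503 in CD4 T barcodes (469 to 539). By suffix, NK stood at 1760, 1666 and 2002 CPM, CD8 T at 1457, 1952 and 1069 CPM, and CD4 T at 489, 531 and 279 CPM. The NK and CD8 T values overlapped, with a pooled ratio of 0.985 (0.953 to 1.02), and both lay above every CD4 T value, with ratios of 3.46 (3.21 to 3.74) and 3.51 (3.27 to 3.78). T barcodes without Cd4 or Cd8 (527 CPM) could not be told apart from CD4 T barcodes within their intervals.

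Fasl was the most even of the 6 genes over the classes. It had a UMI in 29.2% of NK, 31.5% of CD8 T and 25.9% of CD4 T barcodes and 19.3% of T barcodes without Cd4 or Cd8. Its level was 56.4 CPM in NK (47.6 to 66.4), 71.9 in CD8 T (66.6 to 77.6) and 53.9 in CD4 T barcodes (43.1 to 66.6). By suffix, NK stood at 51.9, 71.1 and 48.8 CPM, CD8 T at 79.9, 67.1 and 90.6 CPM, and CD4 T at 45.7, 60.2 and 279 CPM, the last on 5 UMIs in 4 barcodes. The ratio of NK to CD4 T was 1.05 (0.796 to 1.38), that of NK to CD8 T 0.785 (0.651 to 0.941) and that of CD8 T to CD4 T 1.33 (1.06 to 1.69).

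**Figure D2:**
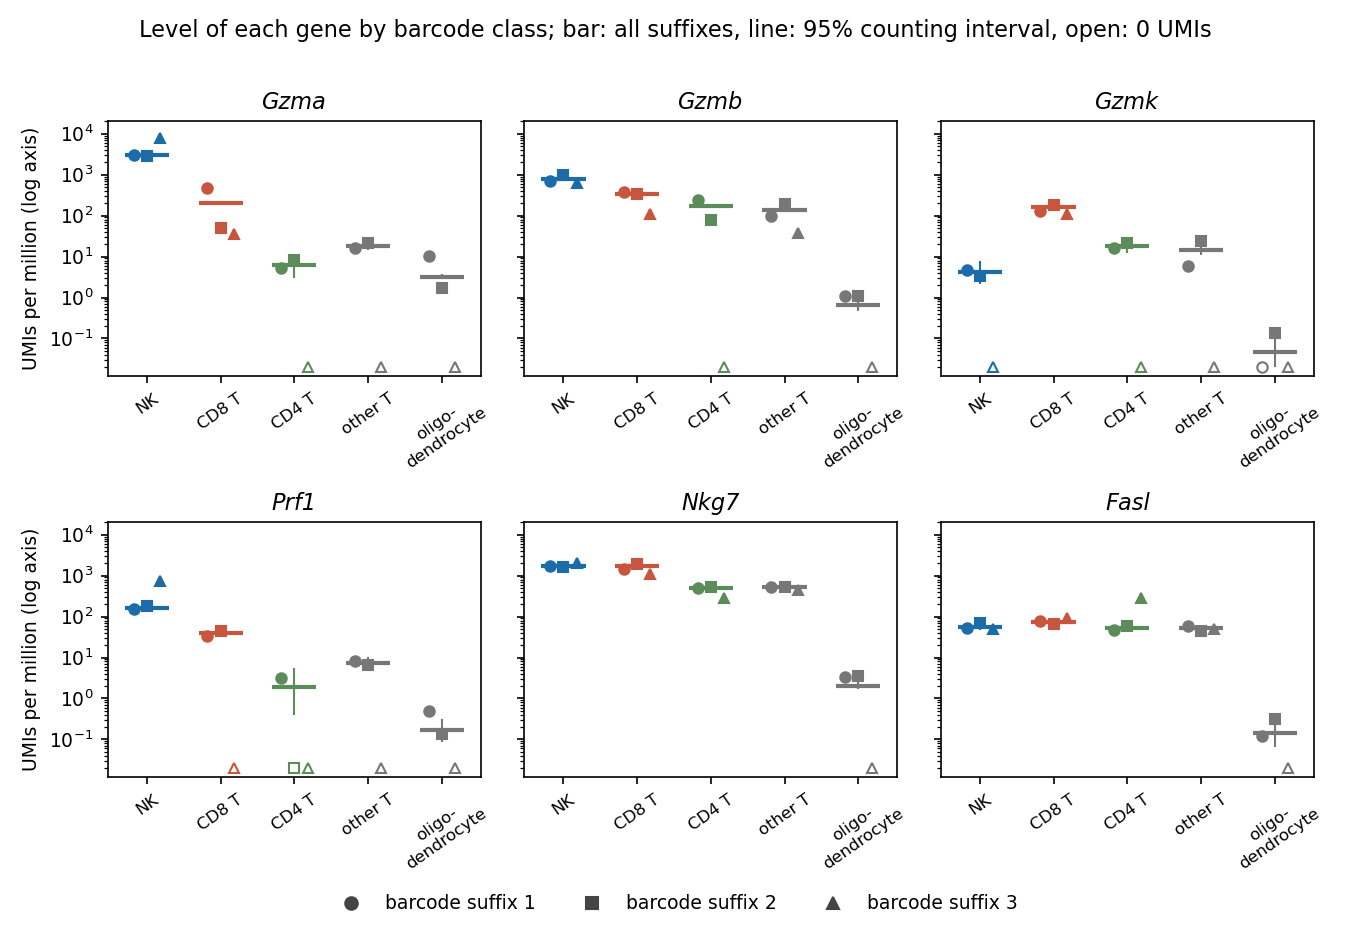
Level of each gene in CPM (log axis) in NK, CD8 T, CD4 T, other T (no Cd4 or Cd8) and oligodendrocyte barcodes; the bar is the value over all suffixes, the vertical line its 95% counting interval, and the symbols are suffixes 1 to 3, drawn open at the bottom of the axis where 0 UMIs were found. Gzma stood at 3064 in NK, 198 in CD8 T and 6.27 in CD4 T, Gzmk was highest in CD8 T, at 161 against 18.2 or less in the other classes drawn, and Fasl lay between 52.1 and 71.9 in the 4 lymphocyte classes.

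To place these ratios among other genes, a gene was called when the CPM plus 10 differed at least 2-fold, over genes with 20 or more UMIs in both classes together. Between NK and CD8 T, 3 of the 6 genes were called higher in NK (Gzma, Gzmb and Prf1), against 1.5% of 10857 genes, and 1 was called higher in CD8 T (Gzmk), against 1.3%. Between NK and CD4 T, 4 were called higher in NK (Gzma, Gzmb, Prf1 and Nkg7), against 2.78% of 8568 genes, and 0 were higher in CD4 T, against 3.1%. Between CD8 T and CD4 T, 4 were called higher in CD8 T (Gzma, Gzmk, Prf1 and Nkg7), against 0.488% of 10653 genes, and 0 higher in CD4 T, against 0.723%. These are counts over single pooled classes, not tests. The median log2 ratio of the 6 genes was 0.57, 1.93 and 1.93 in the 3 comparisons, against -0.05, -0.07 and -0.02 over all genes. Gzmb sat at the limit: without suffix 2 its log2 ratio of NK to CD8 T was 0.93 and it was no longer called, while without suffix 1 its log2 ratio of CD8 T to CD4 T was 2.01 and it was called there too. It was also called there with all 3 Cd3 genes required, with libraries weighted equally, with the filter of the study's methods and after thinning to 1000 UMIs. The comparisons share their classes and are not independent of each other.

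**Figure D3:**
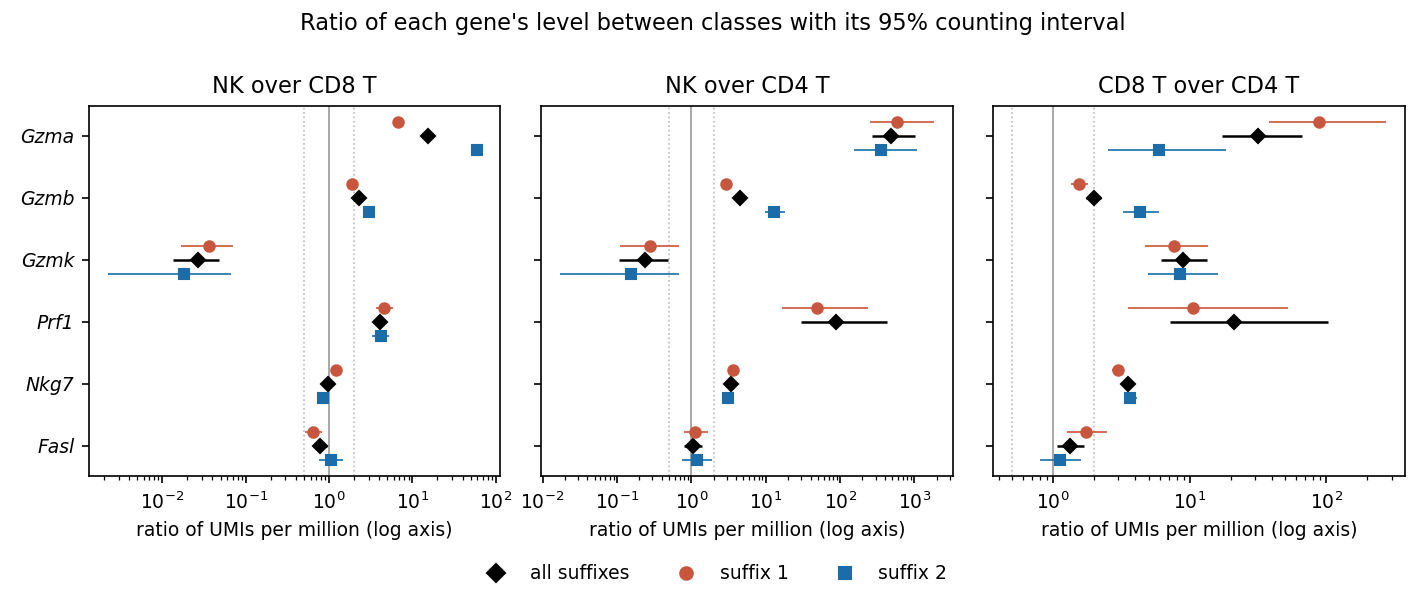
Ratio of the level (CPM, log axis) of each gene between NK and CD8 T, NK and CD4 T, and CD8 T and CD4 T barcodes, over all suffixes (diamonds) and in suffix 1 (circles) and suffix 2 (squares), with 95% counting intervals; dotted lines mark 2-fold and a suffix with 0 UMIs on either side is not drawn. The Gzma ratio of NK to CD8 T is 6.66 in suffix 1 and 59.5 in suffix 2, and Nkg7 and Fasl lie near 1 between NK and CD8 T.

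NK barcodes held more of the genes at once. At least 1 of the 3 granzymes was found in 81.7% of NK, 68.8% of CD8 T and 22.6% of CD4 T barcodes. After each barcode was thinned to 1000 UMIs, these shares were 64.7%, 32% and 7.41%. None of the 6 genes was found in 1 NK barcode, 22 CD8 T barcodes and 76 CD4 T barcodes, which are 0.265%, 1.47% and 31.3% of their classes. Barcodes with many of the 6 genes were most common among NK: 4 were found in 29.2% and 5 in 12.997% of them, against 14.7% and 3.87% in CD8 T and 1.65% and 0% in CD4 T barcodes. All 6 were found in 9 CD8 T barcodes, with a median of 15553 UMIs, and in 0 NK barcodes.

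**Figure D4:**
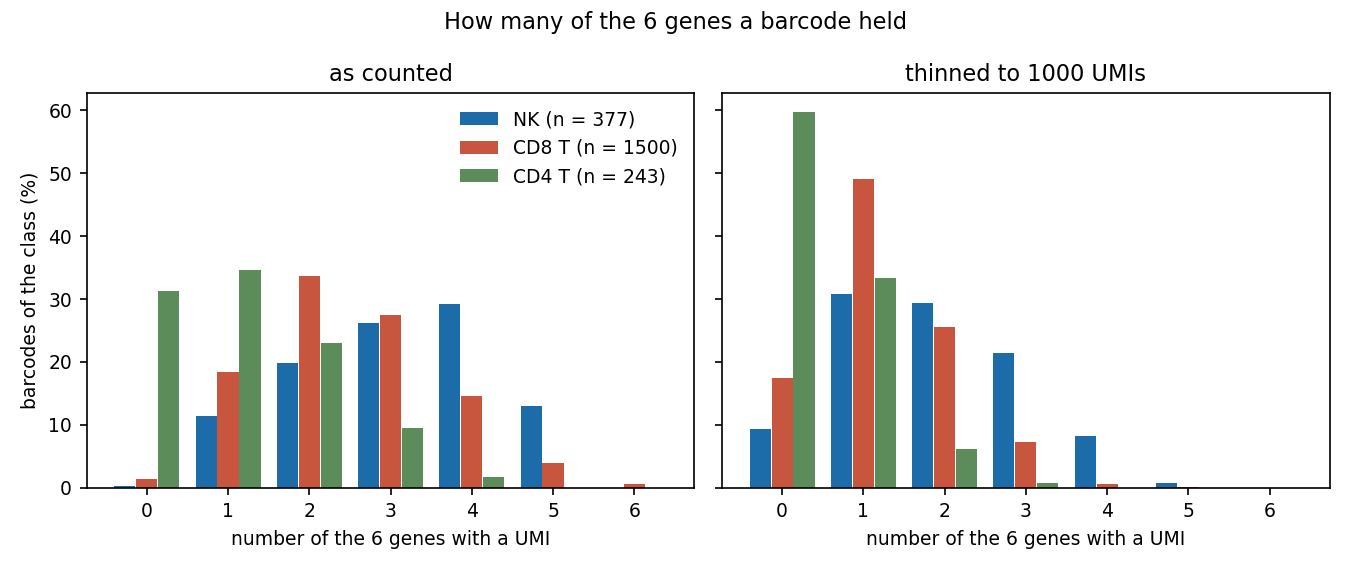
Share of barcodes of each class, in percent, by the number of the 6 genes with a UMI, as counted (left) and after thinning to 1000 UMIs per barcode (right). NK barcodes peak at 4 genes as counted (29.2%), CD8 T at 2 (33.6%) and CD4 T at 1 (34.6%).

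Within NK barcodes Gzma and Prf1 were found together. Prf1 had a UMI in 64.3% of the 238 NK barcodes with Gzma and in 24.5% of those without, and after thinning in 27.2% and 8.06%. This held in suffix 1 (64.7% and 21.5%) and in suffix 2 (61.9% and 31.1%). Gzmb showed the same direction, with 78.6% and 50.4% as counted and 47.6% and 28.5% thinned. All 10 NK barcodes with Gzmk also held Gzma. The median depth of NK barcodes with and without Gzma was 6116.5 and 6272 UMIs.

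In CD8 T barcodes Gzmb and Gzmk were found together in 370 barcodes, which is 24.7% (22.5% to 26.9%), while 266 held Gzmb without Gzmk and 383 Gzmk without Gzmb. Gzmk was found in 58.2% of barcodes with Gzmb and 44.3% of those without. The direction was the same in suffix 1 (54.9% and 34.6%) and in suffix 2 (59.2% and 49.6%). At 1000 UMIs the shares were 16.3% and 14.04%. Thinning left only 289 barcodes with Gzmb and 217 with Gzmk, so the thinned shares miss many barcodes that hold these genes. The median depth of CD8 T barcodes with and without Gzmb was 5033.5 and 5219 UMIs. By suffix, both were found in 18.6% of the CD8 T barcodes of suffix 1 and 27.3% of those of suffix 2. Gzma stood with Gzmb: 73.0% of the 137 CD8 T barcodes with Gzma also had Gzmb, against 39.3% of the others, and at 1000 UMIs the shares were 50% and 17.99%. The gap was wider in suffix 1, at 81.1% and 27.6%, than in suffix 2, at 67.5% and 44.4%. At 1000 UMIs it was 68% and 10.6% in suffix 1 and 37.1% and 21.2% in suffix 2.

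Dividing barcodes, which held at least 3 markers of the cell cycle, numbered 15 in NK, 120 in CD8 T and 23 in CD4 T. Gzma in dividing CD8 T barcodes was 812 CPM (768 to 858), against 75.4 in the others (69.4 to 81.7). This difference came from suffix 1, where the levels were 1596 and 129 CPM, whereas in suffix 2 they were 49.6 and 48.3 CPM. Of the 25 CD8 T barcodes rich in Gzma, 12 were dividing, 11 of them in suffix 1, and these 12 held 77.7% of the Gzma UMIs of the 25. The same 12 held 1213 of the 1260 Gzma UMIs of the 120 dividing CD8 T barcodes. The Gzma level of the dividing barcodes thus rested on few of them. Gzmb was 538 CPM in dividing and 308 in other CD8 T barcodes, with 818 and 245 in suffix 1 but 266 and 342 in suffix 2. Gzmk was 210.1 CPM in dividing and 151 in other CD8 T barcodes and higher in the dividing ones in both suffixes, at 197 and 108 in suffix 1 and 222 and 174 in suffix 2. Prf1 was 37.4 and 40.3 CPM in all, but 54.9 and 26.8 CPM in suffix 1 and 20.3 and 47.8 CPM in suffix 2, so that the direction was not shared. Fasl (68.3 and 72.6 CPM) and Nkg7 (1634 and 1793 CPM) were within 1.10-fold of each other. Dividing barcodes were deeper, with a median of 10826 UMIs against 4989 in CD8 T.

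Gzmb in CD4 T barcodes also differed with division. It was 404 CPM in the 23 dividing barcodes (344 to 470) and 97.6 in the 220 others (80.6 to 117). All 164 UMIs of the dividing barcodes were in suffix 1, and the 5 dividing CD4 T barcodes of suffix 2 had 0. Prf1 had 0 UMIs in the dividing CD4 T barcodes and 3 in the others. The 4 CD4 T barcodes with Foxp3 held 1 UMI of Gzmb, 5 of Nkg7 and 0 of the other 4 genes, at a median depth of 16311.5 UMIs. The intervals of these 0 counts reached 45.1 CPM and 60.2% of barcodes. That level lay above those of all CD4 T barcodes for Gzma, Gzmk and Prf1 and under that of Fasl, 53.9 CPM. The 4 barcodes thus do not show a difference in these genes.

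Eomes, a T-box factor that marks NK cells among innate lymphoid cells, went with higher shares of Gzma and Prf1 in NK barcodes. Gzma had a UMI in 78.7% of the 136 NK barcodes with Eomes (70.8% to 85.2%) and 54.4% of the 241 without (47.8% to 60.8%), with levels of 4077 and 2384 CPM. In suffix 1 these shares were 82.5% and 53.1%, and in suffix 2 65.6% and 55.3%, where the intervals (46.8% to 81.4% and 43.4% to 66.7%) overlapped. Prf1 was found in 64.7% and 41.1% and Gzmb in 75.7% and 63.9% of the barcodes with and without Eomes. In suffix 2 the shares were 56.3% and 46.1% for Prf1 and 71.9% and 63.2% for Gzmb, with overlapping intervals for both genes. For Fasl the shares were 30.9% and 28.2%, and for Nkg7 100% and 98.3%. Barcodes with Eomes had a median of 6834 UMIs and those without 5817. Of the T barcodes without Cd4 or Cd8, 122 had Trdc, and these held Gzmb in 15.6%, Nkg7 in 36.1% and Fasl in 12.3% but Gzma in 2 and Gzmk in 0 barcodes, and a count of 0, read as up to 3 counts, allows a share of up to 2.46% of barcodes with a UMI of Gzmk.

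The other genes of the pathway were read from a list of 36. Of the 31 with enough UMIs between NK and CD8 T, 5 were called higher in NK and 0 in CD8 T, against 1.5% and 1.3% of all genes. Of 30 between NK and CD4 T, 12 were called higher in NK and 1, the receptor Fas, in CD4 T, at 39.5 and 14.5 CPM, against 2.78% and 3.1% of all genes. Of 30 between CD8 T and CD4 T, 5 were called higher in CD8 T and 0 in CD4 T, against 0.488% and 0.723%. The list's median log2 ratio was 0.21, 0.51 and 0.24 in the 3 comparisons, against -0.05, -0.07 and -0.02 over all genes.

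Gzmc, a granzyme encoded beside Gzmb, stood apart between NK and CD8 T barcodes. Its level was 871 CPM in NK (836 to 908), 3.77 in CD8 T and 2.51 in CD4 T barcodes, and a UMI was found in 29.2% of NK barcodes. It was higher in suffix 2, at 2006 CPM and 45.4% of NK barcodes, than in suffix 1, at 524 CPM and 22.8%. Its barcodes were looked at after its level was seen. Gzma was found in 47.3% of NK barcodes with Gzmc (37.7% to 57.0%) and 69.7% of those without (63.8% to 75.1%), with 53.3% and 68.0% in suffix 1, where the intervals overlapped, and 38.8% and 74.6% in suffix 2. Gzmb had the reverse direction, with 78.2% (69.3% to 85.5%) and 64.0% (58.0% to 69.8%), and these intervals overlapped. NK barcodes with Gzmc were deeper, with a median of 6853 UMIs against 5962 in those without. Gzmd, Gzme, Gzmf, Gzmg and Gzmn had at most 10 UMIs over NK and CD8 T barcodes together, and Gzmm, at 4.31 and 13.03 CPM, was not called.

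The 3 inhibitors of granzymes were all called higher in NK than in CD8 T barcodes over all suffixes, but only Serpinb6b passed 2-fold in both suffix 1 and suffix 2. Serpinb6b was 289 against 84.4 CPM and Serpinb9, which blocks granzyme B within the cell that makes it, was 189.6 against 64.9 CPM. With 10 CPM added, the Serpinb9 ratio was 1.93 in suffix 1, under 2-fold, and 2.56 in suffix 2. That of Serpinb6b was 2.70 and 3.51. Serpinb9b was 12.1 against 0.323 CPM, the latter on 3 UMIs. With 10 CPM added, its ratio was 2.15 in all and 2.30 in suffix 1. In suffix 2 it was 1.58, under 2-fold, on 4 UMIs in NK and 3 in CD8 T barcodes. None of the 9 genes of granule content and release was called between NK and CD8 T barcodes. The NK to CD8 T ratio was 1.18 (1.14 to 1.22) for Srgn, the proteoglycan that packs granzymes, 1.39 (1.31 to 1.47) for Ctsw, a protease of cytotoxic cells, and 0.819 (0.672 to 0.993) for Ctsc, which activates granzymes. For the docking and fusion factors Rab27a, Unc13d, Stx11, Stxbp2 and Lyst it lay between 0.711 and 1.35. Ctsw was the only one of the 9 called against CD4 T barcodes, at 577 CPM in NK, 415 in CD8 T and 185 in CD4 T.

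Among effector cytokines and chemokines, Xcl1, which draws dendritic cells, was called higher in NK (2908 CPM) than in CD8 T (660 CPM), and in both over CD4 T (100.3 CPM). The chemokine Ccl5 was called higher in both NK (4715 CPM) and CD8 T (8125 CPM) than in CD4 T (1842 CPM), with 61.8 CPM in oligodendrocyte barcodes. With 10 CPM added, its ratio of NK to CD4 T was 6.01 in suffix 1 but 1.28, under 2-fold, in suffix 2. That of CD8 T to CD4 T was 6.71 and 2.83. Ccl4 was called in the same comparisons as Ccl5, at 2494, 2203 and 562 CPM. Its pooled CD4 T level lay under that of oligodendrocyte barcodes, 621 CPM, with 298 CPM in suffix 1 and 952 CPM in suffix 2. A Ccl4 UMI was found in 84.4% of CD4 T and 66.1% of oligodendrocyte barcodes, and the part of free RNA was not tested. The Ccl3 level of CD4 T barcodes, 113 CPM, also lay under that of oligodendrocytes, 166 CPM. Microglia held Ccl4 at 22735 CPM. Ifng, the interferon of these cells, was not called in any of the 3 comparisons, at 581, 703 and 406 CPM. Of the death ligands, Tnfsf10 (34.9, 28.9 and 21.3 CPM) and Tnf (79.5, 77.8 and 110.3 CPM) were not called either, and oligodendrocyte barcodes held Tnf at 54.4 CPM. Of the 8 transcription factors, Eomes, Tbx21 and Runx3 were called higher in NK than in CD4 T, and Eomes alone in CD8 T over CD4 T, with 95.2 CPM in NK, 49.3 in CD8 T and 1.25 in CD4 T.

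**Figure D5:**
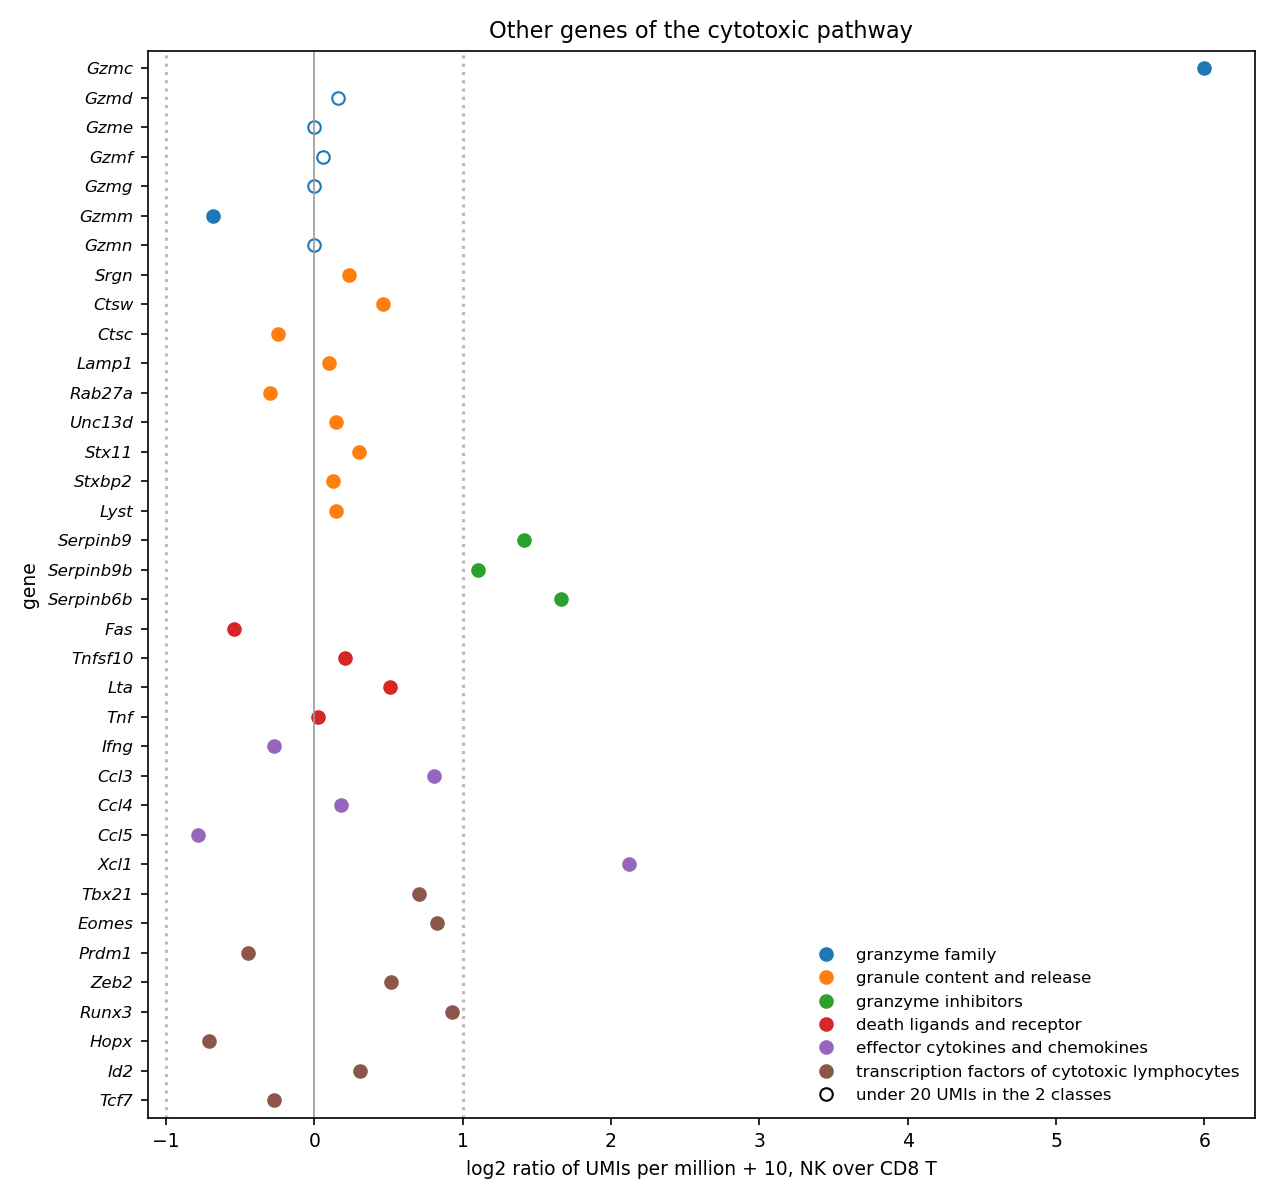
Log2 ratio of the level (CPM plus 10) between NK and CD8 T barcodes for the 36 other genes of the pathway, coloured by their role; open circles had under 20 UMIs in both classes together, and dotted lines mark 2-fold. Gzmc lies farthest to the right, Xcl1 at 2.12 and the 3 inhibitors between 1.10 and 1.66, all beyond the line.

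Genes with a like pattern were sought over 31 points, each a class within a suffix with 20 or more barcodes, by Pearson's r of log2(CPM + 10) among 12123 genes. These correlations are descriptions, since points share libraries and most of the classes lack all of the genes. Nearest to Gzma were Sult2b1 (r = 0.98), Prf1 (0.97), Klrc2 (0.94), Eomes (0.94) and Klre1 (0.94), and nearest to Prf1 were Sult2b1 (0.98), Gzma (0.97), Eomes (0.97), Samd3 (0.96) and Klre1 (0.95). Gzmb was followed most closely by Gpr171, Ctsw, Nkg7, Il2rb and Txk (0.99 to 0.98). Gzmk stood with Gm30054 (0.91), Cd8a (0.89), Themis (0.88), Cd8b1 (0.88) and Fam78a (0.88), of which Cd8a and Cd8b1 define the CD8 T class. Klre1, listed for Gzma and Prf1, is likewise one of the genes that define the NK class. Nkg7 was nearest to Ctsw, Sh2d2a, Sh2d1a, Fasl and Gpr171 (all 0.99), and Fasl to Cd226, Skap1, Gm2682, Ikzf3 and Cd96 (all 0.99). Among the 6 genes, the lowest r was 0.44, between Gzma and Gzmk, and the highest 0.99, between Nkg7 and Fasl. The order of pairs was not the same by ranks (Spearman's rho), where Gzma and Gzmk stood at 0.81. By rho the lowest value was 0.64, between Prf1 and Fasl, and the highest 0.92, between Gzma and Gzmb.

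Markers of other cell types were present in the classes compared. The 6 neutrophil markers summed to 1014 CPM in NK and 46.3 CPM in CD8 T barcodes, with Cxcr2 at 0 UMIs in NK. The 5 NK barcodes richest in each gene held 97.6% of the S100a8 and 98.1% of the S100a9 UMIs of the class. Without barcodes of 10 or more UMIs of this pair, 374 NK barcodes remained and the counts of called genes in NK against CD8 T and CD4 T were 3 and 4, as with them, and Gzmk was still the 1 gene called higher in CD8 T than in NK. The monocyte and dendritic list summed to 1953 CPM in CD8 T barcodes, of which Ly6c2 made 1315 and Plac8 594. Activated T cells can also carry both genes, and the source of these UMIs was not tested. The part of these transcripts in the results was otherwise not tested.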

How the data were processed

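Single-cell 3′ RNA sequencing (10x Genomics) of brain cells gave 3 libraries, 1 per condition. The authors deposited raw UMI counts per gene and barcode, made with Cell Ranger 3.1.0 and STAR on mm10 (GRCm38), and reads were down-sampled across libraries, which brings their depths together. Seurat 3.1.1 is also named in the submitters' processing notes. Suffixes 1, 2 and 3 summed to 72498768, 105957232 and 69270514 UMIs over 10140, 15190 and 10638 barcodes. The genes, gates and lists were chosen with earlier results of these data known. Counts were summed per class and scaled to 1000000 UMIs (CPM). Ratios have exact conditional binomial, levels exact Poisson and shares exact Clopper-Pearson 95% intervals (SciPy 1.17.1), and a count of 0 allows 3 counts. Calls used CPM plus 10 and 2-fold. Other cell classes needed 4 markers and a lead of 2, with no C1q limit. Named genes were the 6 genes, the gate and marker genes, the pathway list and the 5 nearest genes of each. Doublets were called within each suffix by a rewritten Scrublet method and left in; only 36.8% to 42.4% of simulated doublets passed its threshold. Barcodes were thinned to 1000 UMIs to compare shares at equal depth. Steps were tested on simulated data with Python 3.11.15 and NumPy 2.4.6. Promoter windows matched 6 of 6 genes in the RefSeq table.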

Additional observations from a re-analysis of the deposited data

Results flagged for a closer look

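The Nkg7 ratio of NK to CD8 T barcodes lay on different sides of 1 in the suffixes: it was 1.21 in suffix 1, 0.853 in suffix 2 and 1.87 in suffix 3, the last from 6 NK and 10 CD8 T barcodes. The difference between suffixes was not tested.

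Barcodes left out for their C1q share also held granzymes. Of the 23 barcodes that passed the NK gate but not the C1q limit, 87.0% (66.4% to 97.2%) had a UMI of Gzma, Gzmb or Gzmk, and of the 218 that passed the T gate, 43.6% (36.9% to 50.4%) had one. The shares in microglia and oligodendrocyte barcodes were 1.09% and 0.793%. Gzma stood at 1595 CPM in the 23 barcodes and 7.01 CPM in the 218.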

How the results depend on the processing

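Of the 6 counts of called genes, 5 stayed within 1.5 times of their value under all 19 alternatives. The count of genes higher in CD4 T than in NK barcodes was 0 and became 1 under no C1q limit, a C1q limit of 0.1%, the mean and 2 SD filter of the methods, a T gate of all 3 Cd3 genes, libraries weighted equally, or a pseudocount of 1 CPM, and it ranged from 0 to 1 when each suffix was left out in turn (1 without suffix 1). The gene was Fasl with libraries weighted equally and Gzmk otherwise; the cause was not tested. For 19 shares in percent, 323 values were recomputed, of which 282 were counted as the same, 41 as moved and 0 as reversed. Of 378 recomputed log2 ratios, 306 stayed within the counting interval, 72 moved out of it and 0 of those called changed sign. Among the log2 ratios, those of Gzma and Prf1 moved most. The Gzma log2 ratio of CD8 T to CD4 T was 3.68 and became 1.71 without suffix 1. The Gzma log2 ratio of NK to CD8 T was 3.88 and became 5.71 without suffix 1 and 2.75 without suffix 2. It was 4.998 thinned to 1000 UMIs and 5.04 under the filter of the methods. With a pseudocount of 1 CPM, the Prf1 log2 ratio of NK to CD4 T was 5.85 in place of 3.88. That of CD8 T to CD4 T was 3.83 in place of 2.07. With libraries weighted equally, the Prf1 log2 ratio of NK to CD8 T was 3.36 in place of 1.81. The alternatives of leaving out CD8 T barcodes of 10 or more Gzma UMIs and barcodes rich in S100a8 and S100a9 were chosen after the data were seen; the former selects on the value compared, and nothing is read from its ratios. With libraries weighted equally, the Fasl log2 ratio of NK to CD4 T was -1.04 in place of 0.06, resting on the 4 CD4 T barcodes of suffix 3. The 5 nearest genes changed in part for 6 of 6 genes when Spearman's rho replaced Pearson's r. No paired analysis was possible because each condition has 1 library and no suffix is paired with a condition. Suffix 3 held 6 NK, 10 CD8 T and 4 CD4 T barcodes, which limits its values.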
